A study of Mus musculus with 8 samples.

Results

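The genes of the CD3 chains, of the pre-TCR alpha chain and of the kinases and adaptors that act directly behind them were described by the H3K27ac peaks around them in wt and ΔIkE120 P5424 cells. The 10 genes, of 21142 mouse protein-coding genes whose start could be placed, were chosen by name for their role: *Cd3e*, *Cd3d*, *Cd3g*, *Cd247*, *Ptcra*, *Lck*, *Fyn*, *Zap70*, *Lat* and *Lcp2*. Peaks were collected over each gene body plus 20 kb to either side on GRCm38. A gene was said to have a start peak where a peak reached within 1 kb of its 5′ end.

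P5424 is a mouse cell line that stands for T cell precursors. The wt group was the unedited line. The ΔIkE120 group lacked IkE120, an enhancer of *Ikzf1*, which encodes the transcription factor Ikaros, and came from Cas9-edited cells cloned by limiting dilution, in which no wild-type band was left, so it stands for 1 clone. Both were grown in the same medium, and the labels do not say whether the cells fixed for chromatin immunoprecipitation had been stimulated with PMA and ionomycin. Each group had 1 library, so no difference between the groups has a replicate check and no p-value is given.

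H3K27ac, an acetylated histone residue, marks active promoters and enhancers. Immature thymocytes that have rearranged their TCR beta chain pair it with the pre-TCR alpha chain and signal through the CD3 complex. The kinases Lck and Fyn phosphorylate the CD3 tails, Zap70 binds them, and Zap70 in turn phosphorylates the adaptors Lat and Slp-76, on which the downstream signalling complex assembles.

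The values are positions of broad peaks each with a fold enrichment over background and a −log10 q-value from the authors' peak caller. Their sequencing depth is unknown, so the extent of called peaks was compared and their −log10 q-values were ranked within a list. The bases covered in the whole ΔIkE120 list were 0.879 of those in the wt list, and differences at single genes are to be read against this ratio. As a check of the labels, an interval of 252 bases at IkE120, whose position the study's methods give and which need not match the ends of the deletion, lay under a wt peak over all 252 bases and under a ΔIkE120 peak over 0.

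All 10 genes had a start peak in wt (44.5% of all genes did) and all 10 in ΔIkE120 (43.9% of all genes). All 10 had it in both lists, as did 43.4% of all genes, and 0 in 1 list only, as did 1.59%. Over genes with at least 1000 covered bases in either list, 1 of the 10, *Zap70*, had covered bases at least 1.5-fold lower in ΔIkE120, against 8.69% of 12306 genes. None of the 10 was at least 1.5-fold higher, against 1.21% of these genes, so that 1 of the 10 was past 1.5-fold in either direction, against 9.91%. The share of lower genes is near that of all genes, and is no result about the 10 genes as a group.

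The ratio of covered bases in ΔIkE120 to wt had a median of 0.978 over the 10 genes, and ran from 0.610 to 1.21. Over all genes measured the median was 0.934, with quartiles of 0.823 and 1.03. It was below 1 in 6 of the 10 genes and in 67.5% of all genes. There were more peaks in ΔIkE120 than in wt at 3 of the 10 genes (16% of all genes) and fewer at 3 (36.2%). The windows of *Cd3e*, *Cd3d* and *Cd3g* overlap, so these genes share peaks and are not separate measurements. With the 3 taken as 1 window, a choice made after the data were seen, the median was 0.931.

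A large share of the 10 windows was under peaks in both lists. Their median share of covered window was 10.6% in wt and 10.1% in ΔIkE120, against 1.79% and 1.60% over all genes. It was 3.68% and 3.39% over the 9176 genes with a start peak in both lists. Over 48 other genes of T cell receptor signalling, described below, it was 5.14% and 4.43%. Over the 9 of these for co-receptors or surface proteins it was 14.0% and 10.2%, and over 7 T lineage markers 8.69% and 8.60%. A large share is thus not particular to the 10 genes. Every one of the 10 stood at or above the 83.9th percentile of all genes in wt, while in ΔIkE120 *Zap70* stood lower, at the 75.4th. The windows of the 10 genes held a median of 7.5 peaks in wt and 8 in ΔIkE120, where all genes had 2 and 1. The 48 other signalling genes had 7.5 and 7, and the T lineage markers 10 and 8.

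**Figure D1:**
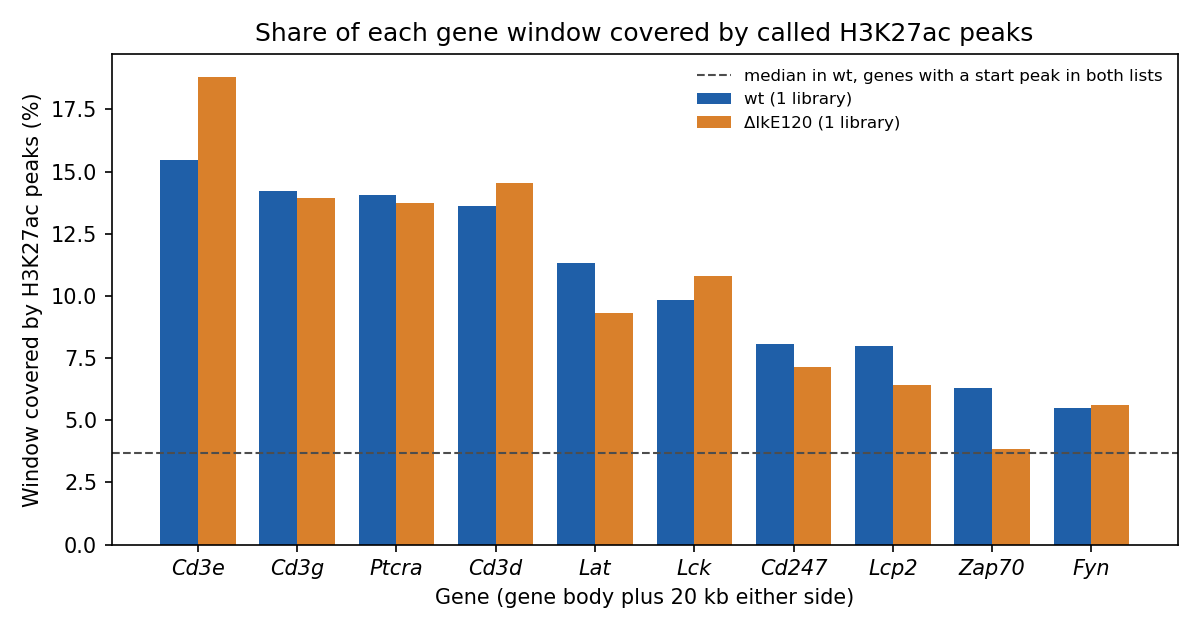
Share of each gene window (gene body plus 20 kb to either side, in percent) covered by H3K27ac peaks, for the 10 genes in wt (blue) and ΔIkE120 (orange) cells, 1 library each, ordered by wt. The bars run from 15.5% at *Cd3e* to 5.48% at *Fyn* in wt, and the dashed line is the wt median of 3.68% over genes with a start peak in both lists; the widest gap in proportion is at *Zap70*, with 6.31% in wt and 3.84% in ΔIkE120.

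The CD3 chains were described next. *Cd3e*, *Cd3d* and *Cd3g*, which encode the epsilon, delta and gamma chains, lie side by side on chromosome 9, and the starts of *Cd3d* and *Cd3g* are 1338 bp apart and point away from each other. From 44949572 to 45029663, the stretch that holds all 3 windows, 13 peaks covered 10207 bases in wt and 15 peaks covered 11381 bases in ΔIkE120. The ratio was 1.12, so the cluster as a whole had slightly more covered bases in ΔIkE120, although the whole list had fewer.

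The window of *Cd3e* held 10 peaks and 7881 covered bases in wt, and 12 peaks and 9567 covered bases in ΔIkE120. Its ratio of 1.21 was the highest of the 10 genes with all peaks and flanks of 20 kb. With the same number of top peaks from each list it was 1.27, also the highest. It was 1.03 with only peaks at or above their list's median −log10 q. Without flanks it was 1.21, with flanks of 5 kb 1.17 and with flanks of 50 kb 1.03. Under these 4 settings it was not the highest. A pair of ΔIkE120 peaks in this window was not overlapped in wt, of 482 bp around 1.7 kb upstream of the start and of 222 bp around 14.7 kb upstream, and both were weak, with −log10 q-values of 1.62 and 2.60. The outermost peak upstream, from 45025871 in wt and 45026036 in ΔIkE120, was 283 bp long in wt and 841 bp in ΔIkE120. Upstream of *Cd3e*, peaks took up 1964 bases in wt and 3131 in ΔIkE120, while within 1 kb of the start they took up 1506 and 1540, so most of the added bases lay upstream, in weak peaks.

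At the start of *Cd3e*, the peak ran from 45008931 to 45010130 in wt and from 45008918 to 45010123 in ΔIkE120, 1200 and 1206 bp. Its fold enrichment was 3.17 in wt and 2.68 in ΔIkE120, and its −log10 q-value 23.97 and 15.83. This placed it at the 97.5th percentile of the wt peaks by −log10 q and at the 88.3rd of the ΔIkE120 peaks. It was the highest-ranked start peak of the 10 genes in wt.

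The start peak of *Cd3d*, from 44980674 to 44983130 in wt, was 2457 bp long, and that of ΔIkE120 was 2339 bp. Its −log10 q-value was 12.16 in wt and 8.97 in ΔIkE120, at the 83.9th and 72.7th percentiles. The *Cd3d* window held 7 peaks in each list, over 6173 bases in wt and 6584 in ΔIkE120, and the ratio was 1.07. Length and number of the peaks at *Cd3d* thus hardly differed.

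The start of *Cd3g* lay 23 bp outside its nearest wt peak, which was 583 bp long, and inside the ΔIkE120 peak, which was 967 bp long. The −log10 q-value of this peak was 19.40 in wt and 12.43 in ΔIkE120, at the 94.6th and 81.9th percentiles. The window held 8 peaks in each list, with 7239 bases in wt and 7092 in ΔIkE120, and the ratio was 0.980. Over the gene body alone the ratio was 1.64, from 583 bases in wt and 956 in ΔIkE120, too few to be called. The start peak was thus longer in ΔIkE120, in a window with flanks of 20 kb whose covered bases hardly differed.

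These percentiles are within lists of 34553 and 29902 peaks, so the start peaks were also ranked among the same 9176 genes in both lists, those with a start peak in each. By −log10 q, *Cd3e* went from the 91.2nd percentile of these genes in wt to the 64.6th in ΔIkE120, *Cd3d* from the 47.1st to the 27.9th and *Cd3g* from the 80.9th to the 46.9th. The differences of -26.5, -19.2 and -34.0 points were the lowest of the 10 genes and lay below the lower quartile of -7.41 over all 9176. A difference this low or lower was found at 3.13% of these genes for *Cd3e*, 7.50% for *Cd3d* and 1.08% for *Cd3g*. Within the whole lists the differences at *Cd3e*, *Cd3d* and *Cd3g* were -9.15, -11.2 and -12.7 points, against a median of -1.24 and a lower quartile of -5.72. In that ranking, differences as low or lower were found at 14.5%, 10.3% and 8.30% of the 9176 genes. Both rankings were added after the data were seen, and the neighbouring peaks are not independent of each other. With 1 library a group, no difference in rank has a replicate check.

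*Cd247* encodes the zeta chain, whose tail carries more phosphorylation motifs than those of the other chains. Its window held 11 peaks and 10566 bases in wt, and 10 peaks and 9354 bases in ΔIkE120, and the ratio was 0.885. Of the wt bases, 86.7% lay within the gene body, in peaks up to 65.1 kb from the 5′ end. *Cd247* therefore differs from the compact CD3 cluster in that its peaks are spread along a long gene.

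At the 5′ end of *Cd247*, a peak of 1183 bp in wt and 831 bp in ΔIkE120 began 330 and 306 bp inside the gene. RefSeq lists another start 8729 bp further in, and it lay under a longer peak of 2376 bp in wt and 2296 bp in ΔIkE120. The −log10 q-value of that inner peak was 8.76 in wt and 8.79 in ΔIkE120, against 4.36 and 4.84 for the outer peak. Both starts were thus marked in both lists, and the inner one by the longer peak with the higher −log10 q-value. Fold enrichment ran the other way, with 2.90 in wt and 2.94 in ΔIkE120 at the inner peak. At the outer peak it was 3.21 and 3.45.

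*Ptcra* encodes the pre-TCR alpha chain, made in immature thymocytes before the TCR alpha gene is rearranged. Its start peak was 1557 bp long in wt, from 46762737 to 46764293 on chromosome 17, and 1929 bp in ΔIkE120. The fold enrichment was 2.18 in wt and 2.19 in ΔIkE120, and the −log10 q-value 4.06 and 4.28. It was a long and low peak, at the 49.4th percentile by −log10 q in wt and the 48.4th in ΔIkE120, and the lowest-ranked start peak of the 10 in both lists.

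Around *Ptcra*, 6 peaks covered 6756 bases in wt and 8 peaks covered 6595 bases in ΔIkE120, and the ratio was 0.976. More than any other of the 10 windows in wt, this one held peaks of its neighbours: 54.3% of the wt bases and 47.6% of the ΔIkE120 bases lay within 1 kb of the starts of *Cnpy3*, *2310039H08Rik* and *Rpl7l1*. When peaks within 10 kb were joined, the domain at the *Ptcra* start spanned 20.8 kb in wt and 32.3 kb in ΔIkE120. By covered bases it stood at the 99.4th percentile of 20239 domains in wt and the 99.8th of 18190 in ΔIkE120. The domain took in the peaks at *2310039H08Rik* and *Rpl7l1* in both lists and those at *Cnpy3* in ΔIkE120 only, so its longer span there holds the peaks of another neighbour.

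*Lck*, the kinase that begins signalling from the pre-TCR and the TCR, is transcribed from an upstream and a downstream promoter, of which the downstream one is known for its use in thymocytes. Both were under peaks in both lists. At the upstream start, at 129573641 on chromosome 4, the peak was 1679 bp long in wt and 1762 bp in ΔIkE120, with −log10 q-values of 10.01 and 12.23. At the downstream start, 15269 bp further in, it was 2639 bp in wt and 2582 bp in ΔIkE120, with −log10 q-values of 13.28 and 14.86. In each list, the downstream peak was the longer and the higher-ranked of the pair.

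The window of *Lck* held 7 peaks and 6432 bases in wt, and 6 peaks and 7057 bases in ΔIkE120, and the ratio was 1.10. The peak fewer in ΔIkE120 came from a pair of wt peaks at the start of the neighbour *Hdac1*, of 714 and 464 bp, that were 1 peak of 1559 bp in ΔIkE120. No *Lck* window peak of either list was without an overlap in the other. Peaks within the gene body took up 3413 bases in wt and 3460 in ΔIkE120, so most of the difference at *Lck* lay in its flanks.

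*Fyn*, a kinase of the same family that is expressed in many tissues, had the longest window, and peaks covered 12902 bases in wt and 13199 in ΔIkE120, and the ratio was 1.02. The numbers of peaks were 15 in wt and 18 in ΔIkE120. Of the wt bases, 100% lay in the gene body, and 98.0% of the ΔIkE120 bases did. The start peak was 1811 bp in wt and 1503 bp in ΔIkE120, and a separate peak of 264 bp just upstream was called only in ΔIkE120. Inside the gene, peaks of 339, 323 and 558 bp had no overlap in wt, and wt peaks of 298 and 292 bp had none in ΔIkE120. The summed extent of peaks around *Fyn* was close to equal in the lists, although these peaks were called in 1 list only. Of the window, 5.48% was covered in wt and 5.60% in ΔIkE120, the lowest wt share of the 10.

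*Zap70*, the kinase that is recruited to phosphorylated CD3 and zeta chains, was the gene with the largest difference. Its window held 7 peaks over 3849 bases in wt and 3 peaks over 2346 bases in ΔIkE120, and the ratio was 0.610. Among all genes measured, this ratio was at the 5.85th percentile. No neighbour's start lay in this window, but a wt peak of 672 bp upstream of *Zap70* lay in the body of another gene, *4933424G06Rik*. In number of bases, *Cd3e* differed by more, with 7881 in wt and 9567 in ΔIkE120.

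The start peak of *Zap70* was in both lists, from 36761504 to 36762641 on chromosome 1 in wt and from 36761417 to 36762403 in ΔIkE120. Its fold enrichment was 2.87 in wt and 3.34 in ΔIkE120, and its −log10 q-value 10.60 and 13.56. The start therefore did not share in the difference, apart from a length of 1138 bp in wt and 987 bp in ΔIkE120. Between 4.5 and 5.9 kb into the gene, 3 wt peaks were overlapped by a pair of ΔIkE120 peaks.

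The wt peaks of *Zap70* with no overlap in ΔIkE120 were a peak of 672 bp centred 7.7 kb upstream of the start, a peak of 253 bp 17.4 kb inside the gene and a peak of 374 bp 18.4 kb inside. Their −log10 q-values were 2.07, 2.91 and 2.35, all below the wt median of 4.12. RefSeq lists a further start 17186 bp into the gene, and the peak of 253 bp lay within 1 kb of it. With only the stronger peaks kept, those not below their own list's median −log10 q, the ratio at *Zap70* was 0.927, and with the gene body alone it was 0.682, so in neither was it past 1.5-fold. It was 0.738 with flanks of 5 kb, 0.501 with flanks of 50 kb and 0.610 with the same number of top peaks from each list, so the last 2 settings kept the call. Divided by the ratio of all covered bases it was 0.693, also short of 1.5-fold. Among the peaks of the window with flanks of 20 kb, those without a partner at *Zap70* were weak and were called in wt only.

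**Figure D2:**
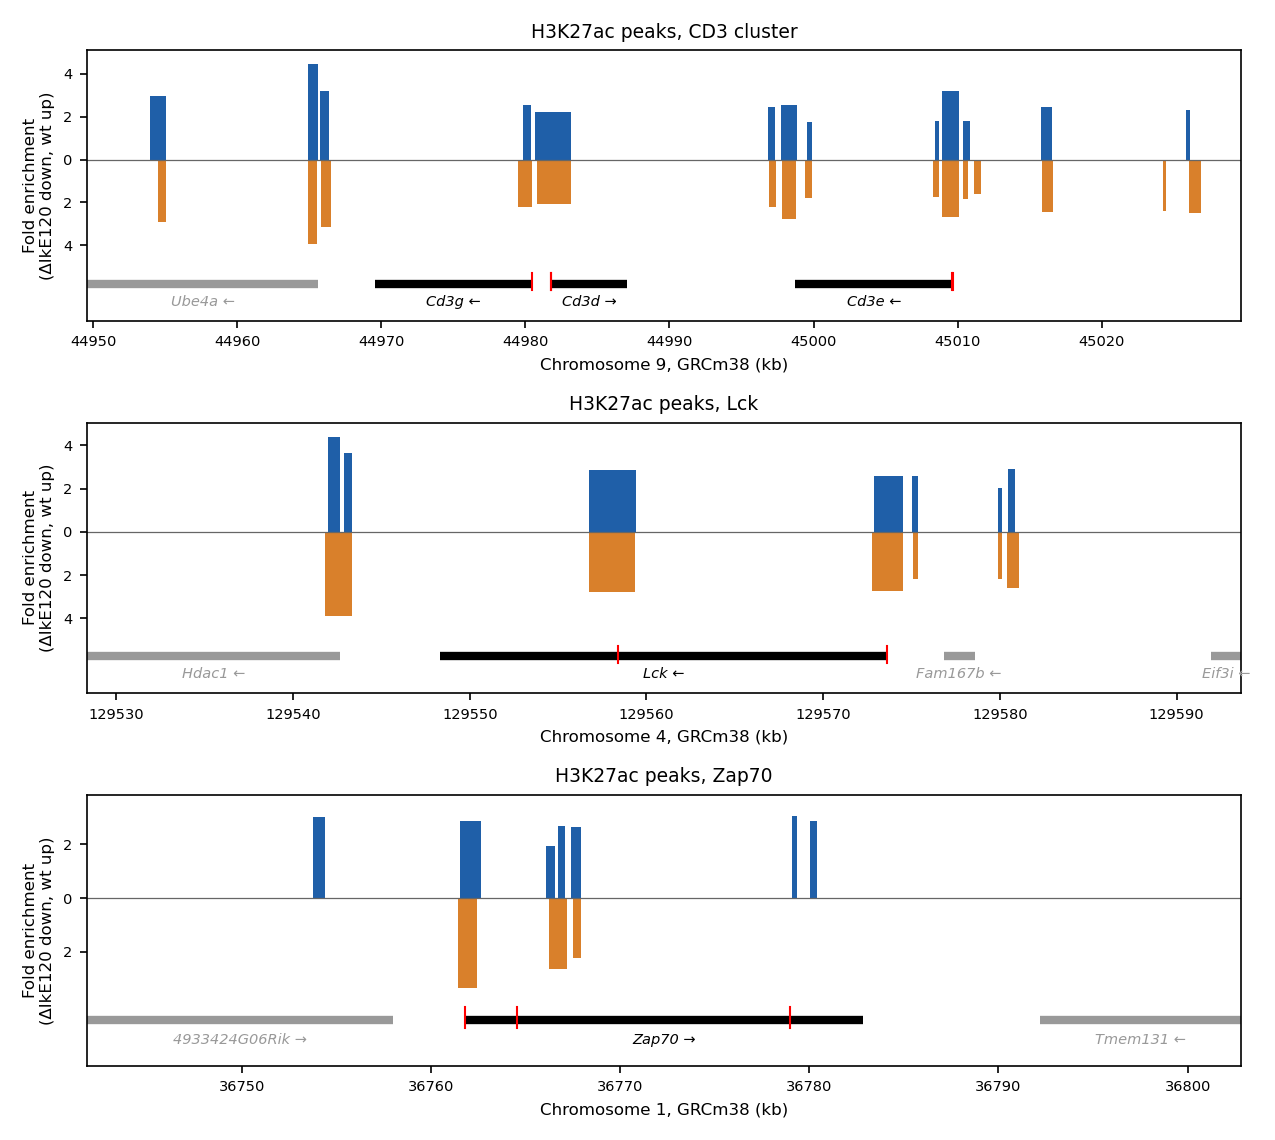
H3K27ac peaks around the CD3 cluster, *Lck* and *Zap70*, drawn to scale along GRCm38 (kb), as boxes whose height is the authors' fold enrichment, upward for wt (blue) and downward for ΔIkE120 (orange), 1 library each. Black bars are the named genes, grey bars their neighbours, arrows the direction of transcription and red ticks the starts; the outer start of *Zap70* and both *Lck* starts are under peaks in both lists, while the *Zap70* window holds 7 peaks in wt and 3 in ΔIkE120.

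*Lat* encodes the membrane adaptor phosphorylated by Zap70. Its start peak was 2478 bp long in wt, from 126367893 to 126370370 on chromosome 7, and 2356 bp in ΔIkE120, with −log10 q-values of 19.20 and 17.37. The window held 6 peaks in each list, over 5195 bases in wt and 4267 in ΔIkE120, and the ratio was 0.821. Each wt peak at *Lat* was overlapped in ΔIkE120, so the lower number of bases came from peaks that were shorter in sum. The 3 peaks centred between 11.4 and 12.8 kb downstream of the start were of 741, 291 and 532 bp in wt and of 511, 356 and 294 bp in ΔIkE120.

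*Lcp2* encodes Slp-76, the cytosolic adaptor that joins Lat. Its window held 8 peaks in each list, with 6804 bases in wt and 5469 in ΔIkE120, and the ratio was 0.804. The start peak of 1390 bp in wt was replaced by peaks of 280 and 882 bp in ΔIkE120, and the start itself lay in the gap between them, 91 bp from the nearer. The start of *Lcp2* counts as marked in both lists, but was inside a peak in wt alone.

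Inside *Lcp2*, strong peaks lay 17.0 kb and 31.8 kb from the start in both lists. The former had a −log10 q-value of 15.58 in wt and 15.70 in ΔIkE120, the latter 17.27 and 13.29. A peak of 319 bp centred 25.5 kb inside the gene was called in wt only, with a −log10 q-value of 4.96. In both lists the peaks at 17.0 and 31.8 kb ranked above the start peak of *Lcp2*. When weak peaks were left out, *Lat* and *Lcp2* passed the 1.5-fold threshold, with ratios of 0.637 and 0.6002, which their ratios over all peaks did not. With this setting 11.9% of all genes were lower, and a count of 2 of 10 is near that share.

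Of 73 different peaks in the 10 windows in wt, 65 (89.0%, exact Clopper-Pearson 95% interval from 79.5% to 95.1%) shared at least 1 base with a ΔIkE120 peak. Of 74 in ΔIkE120, 67 (90.5%, 81.5% to 96.1%) shared at least 1 base with a wt peak. These intervals cover counting error only and take the peaks as independent, which neighbouring peaks of a window need not be. Over all peaks the shares were 74.4% in wt and 86.4% in ΔIkE120. The peaks without an overlap were mostly weak, with a median −log10 q-value of 2.60 in each, against 5.44 for the overlapped wt peaks and 4.74 for the overlapped ΔIkE120 peaks. Exceptions above the median of their own list, 4.12 in wt and 4.47 in ΔIkE120, were the wt peak inside *Lcp2* (4.96) and ΔIkE120 peaks near *Cnpy3* in the *Ptcra* window (5.75) and just upstream of *Fyn* (5.72). Over all peaks the medians were 2.15 in wt and 2.04 in ΔIkE120 without an overlap, and 5.79 and 5.39 with one, so the same was found outside the 10 windows.

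The fold enrichment and length of the start peaks were not used to choose the 10 genes. Their fold enrichment was below the median of all start peaks in 10 of the 10 genes in each list, with a median of 2.82 in wt and 2.86 in ΔIkE120 against 4.19 and 4.32 over the 9176 genes. Their length was above the median of all start peaks in 9 of the 10 genes in wt and in 6 in ΔIkE120, with a median of 1474 bp in wt and 1355 bp in ΔIkE120 against 1078 and 1055 bp. In both lists, their median was thus lower in fold enrichment and greater in length than that of all start peaks. The 36 pathway genes outside the 10 with a start peak in both lists lay on the same side of all genes in fold enrichment, with a median of 3.15 in wt and 3.34 in ΔIkE120, and in length, with 1332 and 1142.5 bp, so neither is particular to the 10 genes.

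The CpG content of the promoters was also counted. RefSeq's promoter table on GRCm38.p6 holds 13 entries for the 10 genes, each of 250 bases before and 50 after a listed start, with 1 to 3 entries a gene. In 12 of them there were 10 CpG or fewer, as in 58.6% of all entries, and *Fyn* had 31. Over the table the median was 7, and over entries under a wt peak 23. Of all entries with 10 CpG or fewer, 7.43% were reached by a wt peak, while 10 of the 12 such entries of these genes were. The pair without a wt peak were the inner starts of *Zap70*. Leaving out *Fyn*, the other genes each had an entry reached by a wt peak in a class of promoters that mostly lay outside wt peaks. The limit of 10 was not set in advance. It is the count of the *Lat* entry, the highest outside *Fyn*, so the class is not independent of these genes.

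Letters known from the binding sites of T cell factors were searched on both strands of the 13 entries. The Ets letters AGGAAG or CGGAAG were in 9 entries (46.5% of all 32851 entries held them), and the E-box letters CAGCTG or CAGGTG in 10 (32.9%). The Ikaros letters TGGGAA were in 7 (25.6%), the Tcf/Lef letters CTTTGA in 5 (16.0%), the Runx letters TGTGGT in 3 (16.8%) and the Gata letters AGATAA in 2 (11.2%). No match overlapped one of another factor, and a match is a description of letters, not a site.

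To show where such letters lay under the peaks, stretches of 28 bases before 6 of the listed starts are given 5′ to 3′ on the gene's strand, from RefSeq GRCm38.p6, with Ets and E-box matches in capitals (CTTCCT is AGGAAG on the other strand, and CAGCTG reads the same on both). All 28 bases of each were under a peak in wt and in ΔIkE120. They are, in order, chr9:45009819-45009846 (minus strand), chr9:44981577-44981604 (plus), chr17:46763756-46763783 (minus), chr4:129573707-129573734 (minus, upstream *Lck* start), chr4:129558470-129558497 (minus, downstream *Lck* start) and chr1:36761653-36761680 (plus).
Cd3e: ggttatgcataAGGAAGgctccctcagt
Cd3d: attcccttacaCTTCCTagaattctgaa
Ptcra: gtagagcagagCAGCTGgggtaCAGCTG
Lck upstream: tctatggcagcAGGAAGcctgaggtgct
Lck downstream: gctggggcggcAGGAAGtgggtaactag
Zap70: acaatccccacCTTCCTcttgtgttccc
The first match in each began 224 bases before the listed start at *Cd3e*, 198 at *Cd3d*, 60 at *Ptcra*, 82 and 114 at the upstream and downstream *Lck* starts, and 134 at *Zap70*. The *Ptcra* stretch holds a pair of E-box matches and the others 1 Ets match each. These 6 were picked from those under peaks. The E-box stretches before the *Cd3g* start, and all those before the inner *Zap70* starts, had 0 bases under a peak in either list.

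Peaks at the other starts were joined into domains at the same spacing of 10 kb and placed among all domains of their list by covered bases. The *Cd3e* domain spanned 29.3 kb in wt and 30.0 kb in ΔIkE120, at the 98.8th and 99.7th percentiles. The *Lat* domain was at the 99.1st and 98.5th, and the *Cd247* domain at the 96.7th and 96.0th. These 3 and *Ptcra* had the highest percentiles of the 10 genes in wt. The *Zap70* domain spanned 14.2 kb in wt and 6.5 kb in ΔIkE120, at the 95.5th and 91.2nd percentiles, and the wt span includes the weak upstream peak. The shared domain of *Cd3d* and *Cd3g* was at the 94.9th and 96.6th, and that of the upstream *Lck* start at the 92.3rd and 95.1st. The domains of *Fyn*, at the 81.5th and 82.1st, and *Lcp2*, at the 80.6th and 69.2nd, stood lowest. The change of percentile over all domains was not measured, so no difference between the lists is read from these values.

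A list of 48 other genes of T cell receptor signalling gave a pathway background. Start peaks were found at 40 of them in wt and 36 in ΔIkE120, and the 4 in wt only (8.33%, against 1.11% of all genes) were *Cd2*, an adhesion receptor, *Csk*, the kinase that restrains Lck, *Dgka*, which removes diacylglycerol, and *Pik3cd*, a catalytic subunit of PI3-kinase. As a share of the genes with a wt start peak, they were 10% in the pathway, against 2.49% over all genes. The nearest peak to the *Cd2* start was 878 bp away in the wt list and 1126 bp away in the other. At *Csk* these distances were 776 and 1783 bp, so both genes depend on the limit of 1 kb. The wt start peaks of all 4 were weak, with −log10 q-values of 3.12 at *Cd2*, 1.62 at *Csk*, 2.94 at *Dgka* and 2.35 at *Pik3cd*. The median of the wt list was 4.12. None of the 48 genes had a start peak in ΔIkE120 only (0.482% of all genes). Of 45 with enough covered bases, 3 were at least 1.5-fold lower in ΔIkE120 (8.69% of all genes) and 0 higher (1.21%). The median ratio was 0.892, where all genes had 0.934, and 39 of the 45 (86.7%) were below 1, against 67.5% of all genes. Past 1.5-fold the share of lower genes, 6.67%, was thus near that of all genes, while more of the pathway than of all genes had a ratio below 1.

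The 3 lower genes were *Pik3cd*, *Dgka* and *Trat1*, an adaptor that associates with the TCR. *Pik3cd* had 5 peaks over 2065 bases in wt and none in ΔIkE120, and no wt peak there had a −log10 q-value above 2.73. *Dgka* went from 3780 to 2401 bases, a ratio of 0.635, and *Trat1* from 3772 to 2484, a ratio of 0.659. At *Pik3cd*, as at *Zap70*, the peaks without a partner were thus weak ones.

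Among the genes of this list with the most covered bases in wt were *Grb2*, an adaptor that links receptors to Ras activation, with 10251 in wt and 8513 in ΔIkE120, and *Cd8b1*, which encodes a co-receptor chain, with 10115 and 8851. Both had fewer covered bases in ΔIkE120, by less than 1.5-fold. Outside all lists, the genes whose covered bases in the 2 libraries were nearest to the medians of the 10 genes, 6780 in wt and 6826 in ΔIkE120, were *Ntn1* (6778 and 6832), *Mfsd11* (6838 and 6825) and *Ap2b1* (6711 and 6823). This likeness is one of extent alone.

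The labelled cell type was checked on marker genes. Of 7 T lineage markers, 6 had a start peak in both lists (*Thy1*, *Bcl11b*, *Gata3*, *Tcf7*, *Lef1* and *Notch1*). *Il2ra*, which encodes CD25 and is high in DN3 thymocytes, had none, although its window held 10 peaks in wt and 7 in ΔIkE120. Of 4 natural killer and 6 non-haematopoietic markers, none had a start peak in either list.

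Among 7 B lineage markers, *Ebf1* had a start peak in both lists and *Blk* in wt only, and *Cd79a*, *Cd79b*, *Ms4a1* and *Pax5* had none. The summed covered bases of these windows, neighbours' peaks included, were 15120 in wt and 9996 in ΔIkE120, against 53459 and 46512 for the T lineage markers. Of 6 myeloid markers, *Cd14* had a start peak in both lists and *Mpo* in wt only, and of 4 erythroid markers *Klf1* and *Epor* did in both, while *Gata1* and *Hba-a1* did not. *Blk* had the largest proportional difference among B lineage genes with enough covered bases, with 4089 bases in wt and 1152 in ΔIkE120. Its part in the differences at the signalling genes was not tested.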

How the data were processed

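H3K27ac was measured by ChIP-seq in wt P5424 cells (1 library) and ΔIkE120 P5424 cells (1 library), grouped by the sample labels. For each library the authors deposited a separate list of broad peaks on GRCm38. Each deposited row holds a position, a score, a fold enrichment (a ratio), a −log10 p-value and a −log10 q-value; the score was not used. The submitters' processing notes name Bowtie2 2.3.4.3, Bowtie 1.0.0, deepTools 3.2.1 and MACS2 2.1.1, without their roles. The wt list held 34553 peaks and the ΔIkE120 list 29902, and their depth is unknown. The 4C libraries of the series were not used here.

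Gene bodies came from RefSeq on GRCm38.p6. Of 21900 protein-coding genes, 21142 had a strand, from RefSeq's promoter table for 17492 and by symbol from GENCODE for 3650. The 5′ end of the gene body was taken as its start. A peak counted with an overlap of 1 base. A window was called different where its covered bases differed at least 1.5-fold, over genes with at least 1000 covered bases in either list. No test was run. The members and lists were chosen with earlier results of these data known. Genes named beside the 10 are those of the pathway list with a start peak in 1 list only, up to 3 per direction past 1.5-fold and the 3 with the most covered bases in wt, the 3 nearest by Euclidean distance of log2(bases + 1) in the 2 libraries, and the marker lists; some of these genes are not reported here. Alternatives were other peak thresholds, start windows of 500 bp and 2 kb, flanks of 0, 5 and 50 kb, scaling by all covered bases, 2-fold, and an overlap of 50%. Overlaps and covered bases were checked on simulated peaks, with 0 of 1500 windows wrong. Tools were pandas 2.3.3, numpy 2.4.6, matplotlib 3.10.9 and scipy 1.17.1 under Python 3.11.15.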

Additional observations from a re-analysis of the deposited data

How the results depend on the processing

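The number of genes with a start peak was 9 or 10 in both lists, and the number with one in 1 list only was 0, under every peak threshold and start window tried and when any start listed by RefSeq was allowed, which was added after the data were seen. The number at least 1.5-fold lower in ΔIkE120 was 1 (8.69% of all genes), and it was 2 with the stronger peaks of each list (−log10 q at the median or higher; 11.9% of all genes), 0 without flanks (12.8%), 0 with flanks of 5 kb (8.46%), 0 when the ratio was divided by that of all covered bases (5.18%) and 0 at 2-fold (3.09%). It was also 1 with flanks of 50 kb (8.19%) and with the same number of top peaks (5.82%). The number higher was 0 under each of these. The median ratio of 0.978 was 0.979 with those stronger peaks, 1.00 (1.001) with the same number of top peaks from each list, 1.00 (1.003) without flanks, 1.01 with flanks of 5 kb, 0.963 with flanks of 50 kb, 1.11 when divided by the ratio of all covered bases, and 0.931 with the CD3 cluster as 1 window, which was also added after the data were seen. It thus lay on either side of 1, and no direction is read from it. Without flanks, the ratio at *Cd3g* was 1.64, over 583 bases in wt and 956 in ΔIkE120, too few to be called. The shares of overlapped peaks stayed within their intervals.

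No paired analysis was possible because each group had 1 library. With 1 library per group, and with 1 clone set against the unedited line, the genotype cannot be told apart from the clone or the library. The depth is unknown, and how far weak peaks depend on it was not tested. Windows include neighbours' peaks.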
